A study of Mus musculus with 31 samples.

Results

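Respiratory complex I, NADH:ubiquinone oxidoreductase, was followed through the genes whose symbols begin with Nduf. The rule took every probe set with a single gene symbol of that form, 50 in all, and kept the probe set with the highest mean for each symbol. This gave 43 genes of 18820 on the array. Of these, 42 passed a filter on dim probe sets, as did 12795 genes in all. The 42 comprise 6 core subunits, 28 accessory subunits, 7 assembly factors and Ndufa4, a protein first counted with complex I and later assigned to cytochrome c oxidase (complex IV).

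Complex I takes electrons from NADH, passes them along a flavin and a chain of iron-sulfur clusters to ubiquinone, and pumps protons across the inner mitochondrial membrane. Its core subunits carry the cofactors and the proton channels. Accessory subunits surround and stabilise the core, and assembly factors build the complex but leave it when it is finished. Colonocytes oxidise short-chain fatty acids, butyrate above all, and the NADH from that oxidation enters the respiratory chain at this complex. Core subunits encoded by the mitochondrial genome lie outside the rule and were not analysed here.

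The samples were scrapings of the colon of male C57Bl/6J mice aged 13 weeks. Their feed supplied 45% of its energy as fat (high-fat diet, HFD) or 10% (low-fat diet, LFD), both semi-synthetic with palm oil as the fat. The remaining energy sources shift with the fat and cannot be told apart from it. Each mouse received a daily rectal infusion of 80 µL for 6 days, and tissue was taken 4 h after the last one. The 8 groups were butyrate HFD, propionate HFD, acetate HFD and saline HFD, and butyrate LFD, propionate LFD, acetate LFD and saline LFD, with the acids given as 100 mM sodium salts. Each group had 4 arrays (n = 4) except acetate LFD with 3 (n = 3), 31 in all. All values below are log2 levels as deposited, and each difference is given on that scale, in the direction named, ± its standard error in the limma fit. A gene passed the test at an adjusted p under 0.05 over all 12795 genes. According to the labels 6 mice entered each group, but which of them an array represents is not stated, so the p-values measure the spread between these samples, which may be technical. A scraping mixes cell types, and fewer cells of a type cannot be told apart from less RNA per cell.

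Colonocyte markers averaged between 11.4 and 11.7 on every array, high as the label of the tissue implies. Arrays that stood apart were saline HFD 2, saline LFD 2, saline LFD 3 and propionate LFD 2, with small-intestinal enterocyte markers at 8.40 to 8.91 against at most 7.02 elsewhere. Smooth muscle markers reached 6.68 on saline HFD 1 and 6.49 on saline HFD 2, with no other array above 5.93. Small nucleolar RNAs, which guide chemical changes to ribosomal RNA, were tested for 52 genes. Their mean was 7.74 ± 0.25 (SD, n = 4) in propionate HFD and 6.98 ± 0.15 (SD, n = 4) in propionate LFD. One saline array, saline LFD 1, stood apart in complex I and in the other respiratory complexes, as described below.

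Promoter sequences from RefSeq (GRCm38.p6), from 250 bases before to 50 bases after each gene's start, matched 38 of the 43 genes. They were searched on both strands for letters tied to regulators of respiratory genes. The first was the palindromic site of nuclear respiratory factor 1 (NRF1), GCGCA, any base, then GCGC. It stood in 9 of the 38 complex I genes (23.7%) and in 5.19% of all 27025 genes with a promoter sequence. A gene with several starts counted once, if any of its windows matched. AAGATGGC, a form of the YY1 site, stood in 7 (18.4%, against 3.19% of all these genes). The GC box GGGCGG stood in 19 of 38 (against 38.2% of all these genes), and CCGGAAGT, an ETS family site, in 1 (2.63%, against 4.31%). A match describes these letters and is not evidence of a bound factor. The 9 windows below each show 30 bases on the gene's own strand with the NRF1 letters, read on either strand, in capitals. They are printed because this site is the commonest of the longer ones among these genes. Ndufb4 held 3 matches, of which 1 is shown.
Ndufa11 (chr17:56717692-56717721, + strand): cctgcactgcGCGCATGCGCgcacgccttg
Ndufa5 (chr6:24527697-24527726, - strand): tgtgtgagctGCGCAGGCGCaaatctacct
Ndufa6 (chr15:82354249-82354278, - strand): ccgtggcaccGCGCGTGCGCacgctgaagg
Ndufa8 (chr2:36049349-36049378, - strand): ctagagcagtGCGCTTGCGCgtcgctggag
Ndufaf4 (chr4:24897960-24897989, + strand): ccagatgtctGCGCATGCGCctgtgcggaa
Ndufaf5 (chr2:140170652-140170681, + strand): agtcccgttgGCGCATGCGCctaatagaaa
Ndufb4 (chr16:37654540-37654569, - strand): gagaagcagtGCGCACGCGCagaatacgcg
Ndufs5 (chr4:123718265-123718294, - strand): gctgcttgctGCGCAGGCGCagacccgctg
Ndufs6 (chr13:73328479-73328508, - strand): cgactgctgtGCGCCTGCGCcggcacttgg

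The YY1 letters, in capitals in the next 7 windows, all lay after the gene's start, whereas 7 of the 9 NRF1 matches lay before it. They are printed because a member past the threshold (Ndufc1) is among them. Ndufs6, an accessory subunit near the iron-sulfur chain, is the only gene in both sets.
Ndufa3 (chr7:3617384-3617413, + strand): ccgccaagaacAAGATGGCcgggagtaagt
Ndufa9 (chr6:126849097-126849126, - strand): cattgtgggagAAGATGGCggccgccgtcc
Ndufb8 (chr19:44555393-44555422, - strand): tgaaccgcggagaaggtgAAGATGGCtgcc
Ndufc1 (chr3:51408915-51408944, - strand): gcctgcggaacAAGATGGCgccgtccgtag
Ndufs4 (chr13:114388045-114388074, - strand): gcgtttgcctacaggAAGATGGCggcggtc
Ndufs6 (chr13:73328433-73328462, - strand): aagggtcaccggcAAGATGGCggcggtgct
Ndufs7 (chr10:80249462-80249491, + strand): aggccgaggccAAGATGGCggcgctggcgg

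Levels over the 8 groups differed little. Core subunits averaged 10.11 ± 0.063 in butyrate HFD, 9.97 ± 0.120 in propionate HFD, 10.09 ± 0.059 in acetate HFD and 10.09 ± 0.052 in saline HFD (SD, n = 4 each). On LFD the core mean was 10.10 ± 0.013 in butyrate, 10.16 ± 0.048 in propionate and 10.09 ± 0.041 in saline arrays (SD, n = 4 each), and 10.08 ± 0.151 in acetate arrays (SD, n = 3). Propionate HFD was thus the lowest group and propionate LFD the highest for the core, and the neighbours between them lay within the spread of the arrays.

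Accessory subunits averaged 9.004 ± 0.057 in butyrate HFD, 9.02 ± 0.127 in propionate HFD, 8.99 ± 0.023 in acetate HFD and 9.05 ± 0.050 in saline HFD (SD, n = 4 each). The LFD means were 9.05 ± 0.055 in butyrate, 9.08 ± 0.042 in propionate and 9.14 ± 0.183 in saline arrays (SD, n = 4 each), and 9.07 ± 0.052 in acetate arrays (SD, n = 3). Assembly factors lay between 6.42 ± 0.132 in propionate HFD and 6.61 ± 0.074 in propionate LFD (SD, n = 4 each). Counted gene by gene, propionate HFD was the lowest of the 8 groups for 22 of 42 genes and acetate HFD for 12, while saline LFD was the highest for 17 and propionate LFD for 13. Group means ranged furthest for Ndufaf1 (0.52 between the highest and lowest group), Ndufb6 (0.49), Ndufs5 (0.48), Ndufaf4 (0.45) and Ndufb7 (0.45), and least for Ndufs3 (0.11), Ndufb5 (0.099) and Ndufaf7 (0.085).

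**Figure D1:**
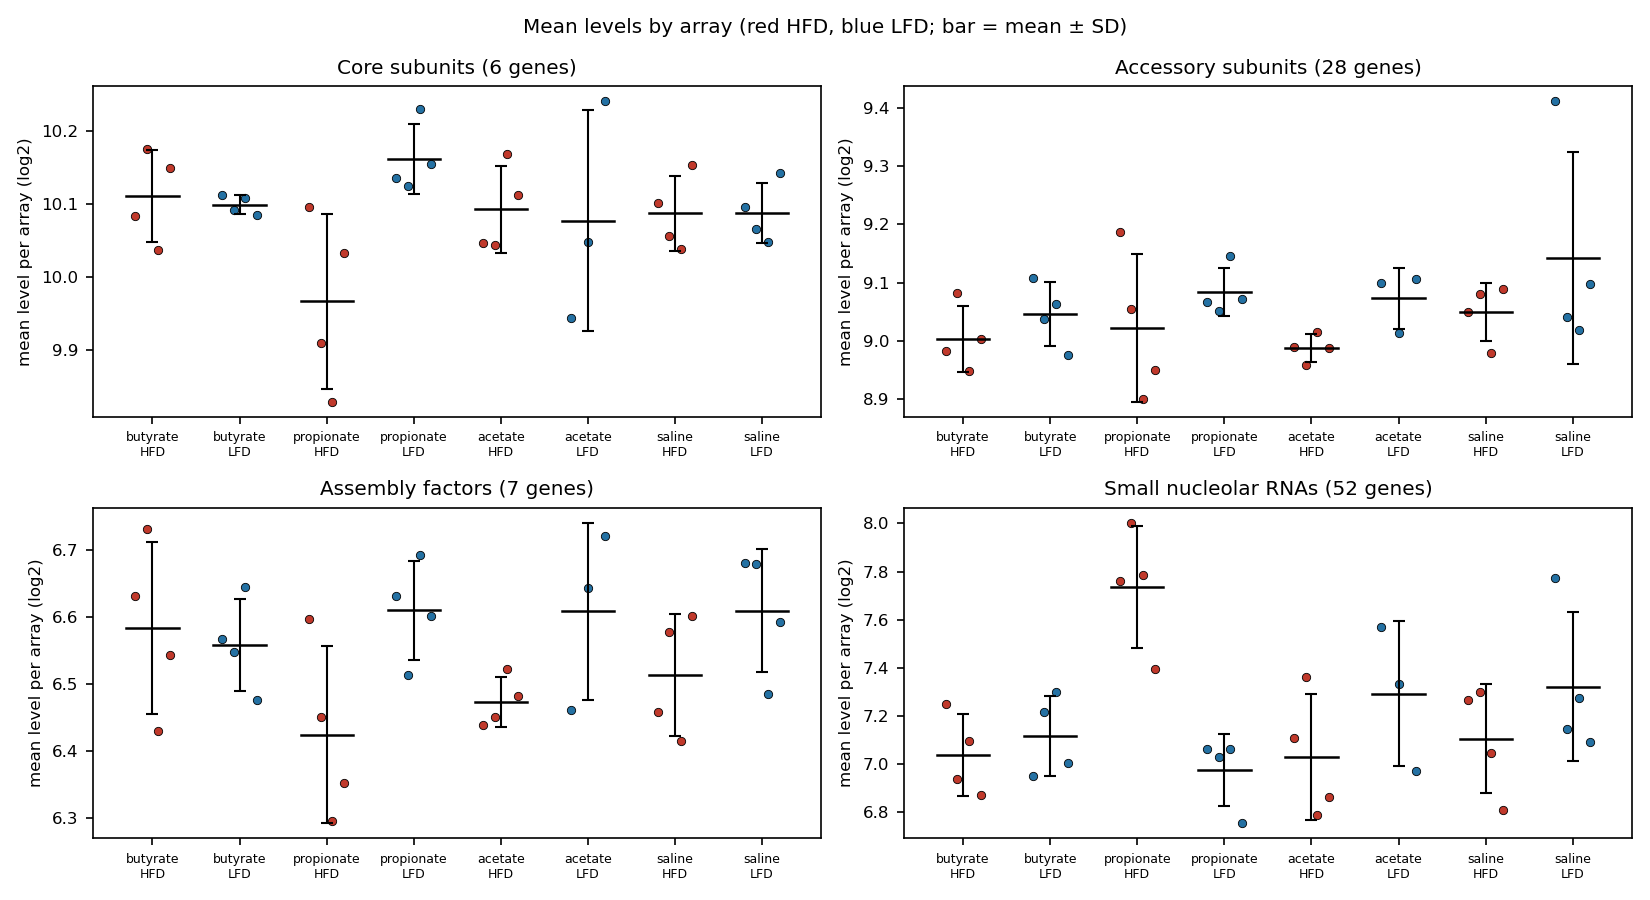
Mean log2 level per array of the 6 core subunits, 28 accessory subunits, 7 assembly factors and, for comparison, 52 small nucleolar RNAs, by group (red HFD, blue LFD); points are arrays and bars the mean ± SD. The propionate HFD arrays spread downwards in the core and assembly panels and upwards in the small nucleolar RNA panel, and 1 saline LFD array stands at 9.41 in the accessory panel.

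Saline LFD 1 had the highest level of all 31 arrays for 26 of the 42 genes. There 36 of the 42 lay above their own mean over all arrays, against 45.7% of all tested genes. Its mean over the 42 was 9.05, against 8.58 to 8.88 on the other arrays. The accessory mean there was 9.41, with no other array above 9.19, while its core mean of 10.10 lay between the lowest, 9.83, and the highest, 10.24, of all arrays. Without this array saline LFD was the highest group for 3 genes rather than 17, and propionate LFD for 20. Saline LFD 1 also had the highest mean levels of the genes of complexes II, III, IV and V, at 8.75, 9.57, 8.93 and 10.87. The next highest arrays had 8.73, 9.40, 8.82 and 10.74, so its high level was not particular to complex I. Propionate HFD 3 was the opposite case within complex I, the lowest of all arrays for 20 genes. The plot of group means shows both patterns gene by gene.

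**Figure D2:**
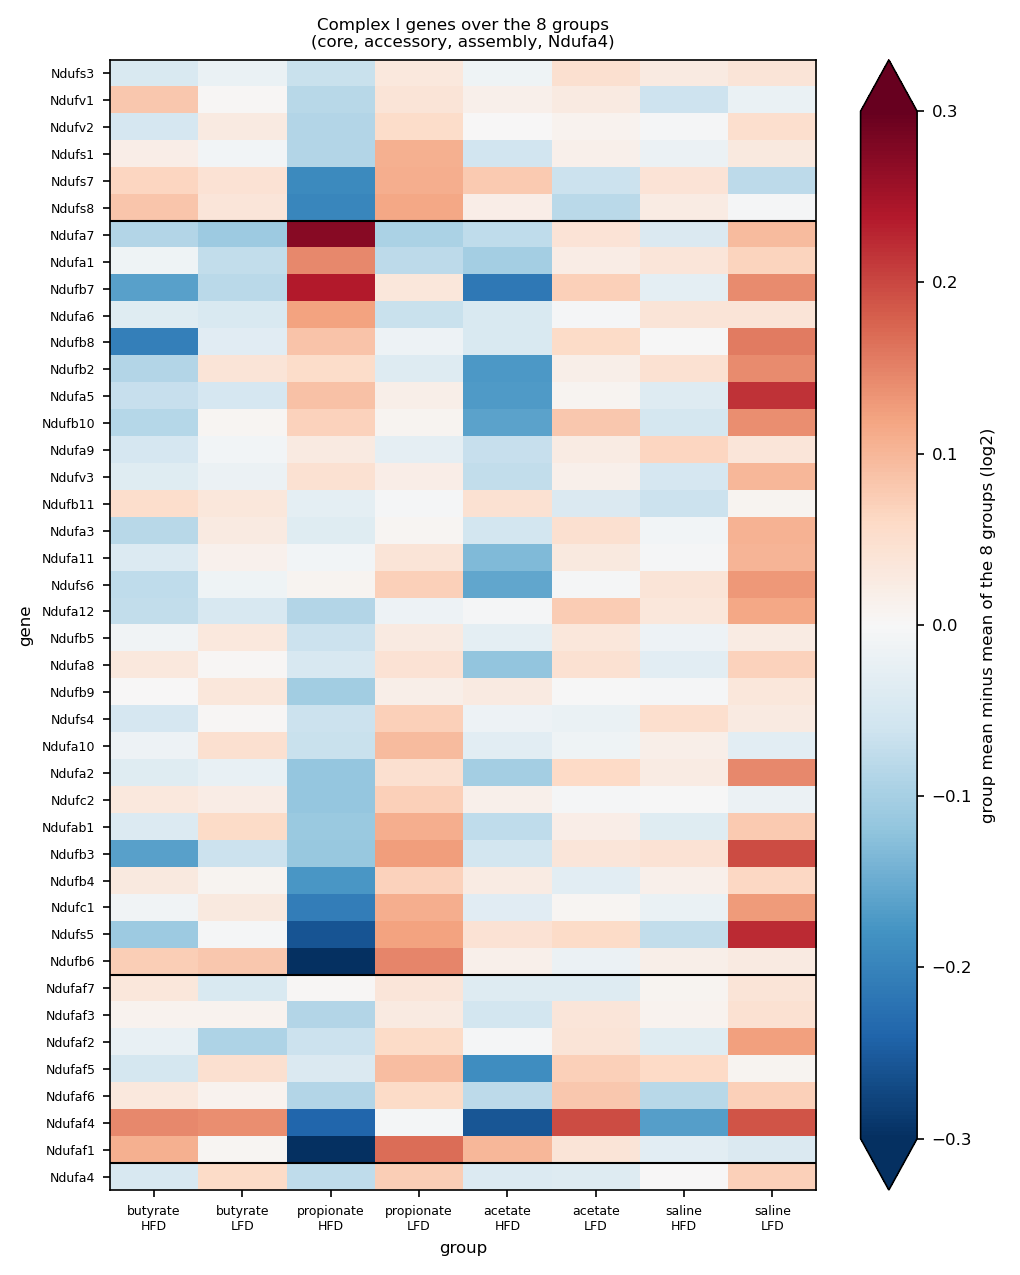
Group mean minus the mean of the 8 groups (log2, colour scale cut at -0.3 and 0.3) for the 42 genes, with lines between core subunits, accessory subunits, assembly factors and Ndufa4. The propionate HFD column is below the mean for all 6 core genes and furthest above it for Ndufa7 and Ndufb7, and the saline LFD column is mostly above the mean.

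The first comparison asked what the diet did over all 4 infusions. None of the 42 genes passed the test, against 2.7% of all tested genes (1.53% higher and 1.16% lower on HFD). Yet 37 of 42 differences lay below 0, against 47.6% of all genes, with a median of -0.07 beside 0.01 for all genes. At an unadjusted p under 0.05, 13 complex I genes were lower and 0 higher, against 10.8% lower and 11% higher of all genes. The direction was not particular to complex I. Mean levels of the genes of complexes II, III and V were also lower on HFD under each infusion. For complex III they were 9.26, 9.20, 9.26 and 9.23 on HFD (saline, acetate, propionate, butyrate), against 9.34, 9.28, 9.31 and 9.28 on LFD. Complex IV was lower under saline, acetate and butyrate but higher under propionate. The 3 lowest differences were those of Ndufaf4, Ndufs5 and Ndufb3.

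Ndufaf4, an assembly factor that acts early with Ndufaf3, had a log2 level of 6.18 at the lowest, 6.46 at the median and 7.09 at the highest of 16 HFD arrays, against 6.51, 6.73 and 7.12 on 15 LFD arrays. The difference was -0.26 ± 0.081 (limma, adjusted p = 0.0692), and 13 of 16 HFD arrays lay below the LFD mean of the same infusion, although the ranges overlapped. Ndufs5, an accessory subunit on the intermembrane-space side, ran from 6.34 through 6.84 to 7.19 on HFD arrays, against 6.64 through 7.02 to 7.60 on LFD arrays. Its difference was -0.20 ± 0.078 (limma, adjusted p = 0.132), again with overlap. Ndufb3, a small membrane-arm subunit, differed by -0.14 ± 0.063 (limma, adjusted p = 0.175).

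Ndufc1, another membrane-arm subunit, had a smaller difference of -0.14 ± 0.044 but a lower p (limma, adjusted p = 0.0739), and Ndufb10 had -0.12 ± 0.041 (limma, adjusted p = 0.0961). Most even over the arrays were Ndufa3 and Ndufaf6, below the LFD mean in 15 of 16 HFD arrays each. The 3 highest differences were small: 0.04 for Ndufa6, 0.03 for Ndufa7 and 0.03 for Ndufa1. Core subunits had 6 of 6 differences below 0 with a median of -0.04, accessory subunits 24 of 28 with -0.08, and assembly factors 6 of 7 with -0.09.

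Split by infusion, 14 genes lay below 0 under all 4 infusions, 16 under 3, 7 under 2 and 5 under 1. The 4 comparisons use separate arrays, but saline LFD 1 enters the saline one: without it the median there moved to 0.00 (0.0036), against -0.07 with all arrays. The median over all 4 infusions without it was -0.05.

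Under saline 0 of 42 genes passed, as did 0% of all genes. Ndufaf4 had the lowest difference at -0.35 ± 0.159, followed by Ndufs5 at -0.30 and Ndufa5 at -0.26, while Ndufs7 was highest at 0.12, followed by Ndufaf5 and Ndufa10 at 0.05 each. Under acetate 0 passed (0% of all genes), and all acetate HFD arrays lay below all acetate LFD arrays for 7 genes (16.7%), against 4.18% of all genes. Ndufaf4 was lowest there too, at 6.21, 6.51, 6.36 and 6.40 in acetate HFD, against 6.60, 6.99 and 6.89 in acetate LFD arrays and a difference of -0.45 ± 0.171. Ndufb7 followed at -0.29 and Ndufaf5 at -0.26, and the highest were Ndufs7 at 0.14, Ndufs8 at 0.10 and Ndufb11 at 0.09. Under butyrate 0 passed (0% of all genes), and 26 of 42 lay below 0 with a median of -0.02, against 41% of all genes below 0. Differences there ran from -0.17 (Ndufb8), -0.13 (Ndufb2) and -0.11 (Ndufa3) to 0.10 (Ndufaf1), 0.08 (Ndufaf7) and 0.08 (Ndufv1). Ndufaf4, lowest under saline and acetate, had a difference of 0.0041 under butyrate.

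Under propionate, 6 of the 42 complex I genes passed the test, 5 lower and 1 higher on HFD. The lower ones were the core subunit Ndufs8, the accessory subunits Ndufb6, Ndufc1 and Ndufa10, and the assembly factor Ndufaf1, by 0.16 to 0.52 on the log2 scale. The higher one was the accessory subunit Ndufa7. In this comparison 6.87% of all genes passed, 4.82% lower and 2.05% higher, so that 14.3% of complex I genes stood beside a background already large. The median of the 42 was -0.12, beside -0.02 for all genes, and 32 of 42 lay below 0 (54.3% of all genes).

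**Figure D3:**
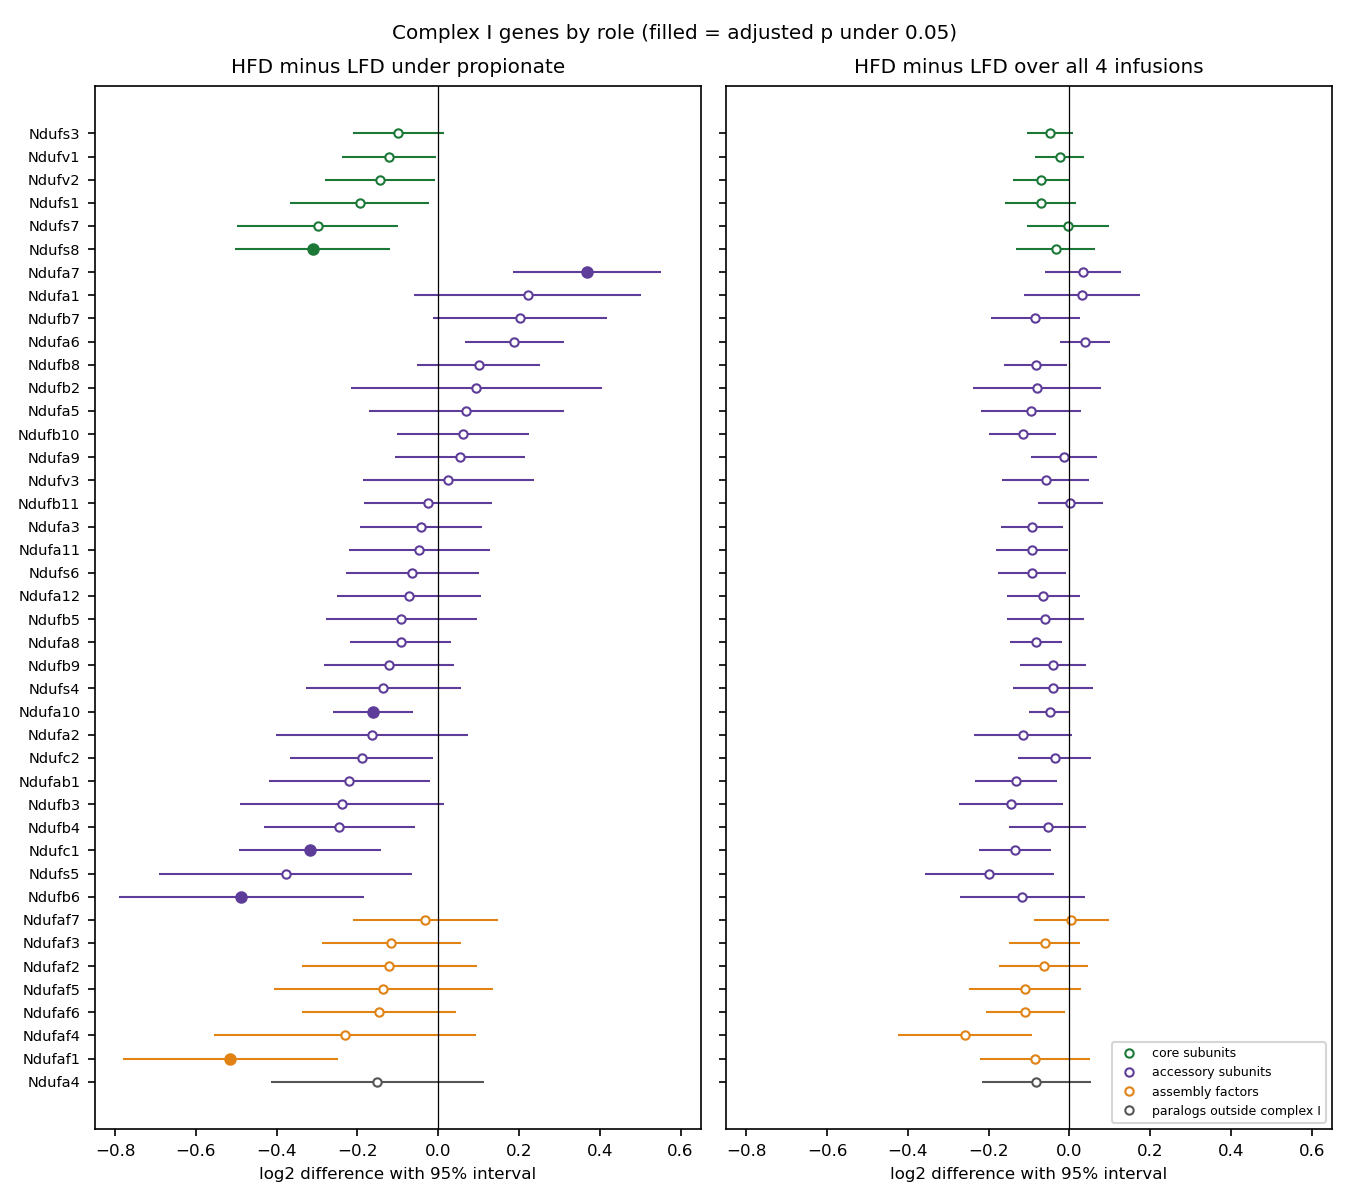
Log2 difference HFD minus LFD with its 95% interval for the 42 genes, ordered by role, under propionate (left) and over all 4 infusions (right); filled points passed an adjusted p under 0.05. Under propionate all core subunits and assembly factors lie below 0 and accessory subunits spread to both sides, from 0.37 for Ndufa7 to -0.49 for Ndufb6.

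All 6 core subunits were below 0 with a median of -0.17, and 5 of them had an unadjusted p under 0.05. At that level 13 of the 42 genes were lower and 2 higher, against 15.9% lower and 8.5% higher of all genes. Ndufs8, which carries iron-sulfur clusters near the ubiquinone end of the chain, was at 9.94, 9.65, 9.58 and 9.77 in propionate HFD, against 10.04, 10.04, 10.12 and 9.99 in propionate LFD. The groups did not overlap. The difference was -0.31 ± 0.094 (95% interval -0.50 to -0.12; limma, adjusted p = 0.0441).

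Ndufs7, which holds the last cluster before ubiquinone, was at 11.15, 10.98, 10.84 and 11.30 in propionate HFD, against 11.37, 11.29, 11.43 and 11.36 in propionate LFD. Here the highest HFD array just passed the lowest LFD array, and the difference of -0.30 ± 0.098 did not pass (limma, adjusted p = 0.0589). Ndufs1, the large iron-sulfur subunit, had -0.19 ± 0.084 and Ndufv2 had -0.14 ± 0.066. Ndufv1, the flavin-binding subunit where NADH is oxidised, had -0.12 ± 0.057, with all HFD arrays (9.66 to 9.74) below all LFD arrays (9.79 to 9.86). Ndufs3 had the smallest core difference, -0.10 ± 0.055.

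Accessory subunits went both ways, 18 below 0 and 10 above, with a median of -0.07. Ndufb6, in the membrane arm, was at 10.52, 9.84, 9.55 and 10.01 in propionate HFD, against 10.35, 10.36, 10.67 and 10.49 in propionate LFD. It fell by 0.49 ± 0.148 (limma, adjusted p = 0.0447), although propionate HFD 1 lay above 3 of the LFD arrays. That error rests on a spread pooled over all 8 groups. Within propionate HFD the SD of Ndufb6 was 0.405, and within propionate LFD 0.149. Ndufc1 was at 8.83, 8.68, 8.55 and 8.70 in propionate HFD, against 9.02, 8.96, 9.03 and 9.01 in propionate LFD. It fell by 0.32 ± 0.085 (limma, adjusted p = 0.0292), with no overlap. Its second probe set, tested in a fit of all probe sets, differed by -0.34 (limma, adjusted p = 0.0254).

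Ndufa10, a membrane-arm subunit with a nucleoside kinase fold, was at 10.50, 10.58, 10.49 and 10.58 in propionate HFD, against 10.67, 10.67, 10.77 and 10.69 in propionate LFD. The groups stood apart, and the fall was small, 0.16 ± 0.048 (limma, adjusted p = 0.0431). Further genes with low differences and an unadjusted p under 0.05 were Ndufs5 (-0.38), Ndufb4 (-0.24), Ndufab1, the mitochondrial acyl carrier protein (-0.22), and Ndufc2 (-0.19).

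In the other direction, Ndufa7 was at 8.85, 8.97, 8.84 and 8.75 in propionate HFD, against 8.44, 8.61, 8.42 and 8.48 in propionate LFD. Every HFD array lay above every LFD array, and the rise was 0.37 ± 0.090 (95% interval 0.18 to 0.55; limma, adjusted p = 0.0200). Ndufa6, a subunit of the LYR family that binds the acyl carrier protein, was at 10.25, 10.29, 10.40 and 10.27 in propionate HFD, against 10.14, 10.17, 10.10 and 10.05 in propionate LFD. These groups did not overlap either, but the difference of 0.19 ± 0.060 did not pass (limma, adjusted p = 0.0538). Ndufa1 had 0.22 ± 0.137 and Ndufb7 had 0.20 ± 0.105, both with overlap. In all, 5 genes had all HFD arrays below all LFD arrays (11.9%, against 8.77% of all genes) and 2 had all above (4.76%, against 5.22%).

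Assembly factors lay below 0 in 7 of 7 cases, with a median of -0.14. Ndufaf1, a founding member of the assembly complex for the membrane arm, was at 7.44, 7.03, 6.72 and 7.44 in propionate HFD, against 7.65, 7.49, 7.89 and 7.65 in propionate LFD. It had the lowest difference of the 42 genes, a fall of 0.52 ± 0.130 (95% interval -0.78 to -0.25; limma, adjusted p = 0.0228), with no overlap. Here too the error pools all 8 groups, and the SD of Ndufaf1 was 0.352 in propionate HFD and 0.166 in propionate LFD. Ndufaf4 followed at -0.23 ± 0.159 and Ndufaf6 at -0.15 ± 0.093. Ndufa4, outside the complex, had -0.15 ± 0.129 (limma, adjusted p = 0.500).

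**Figure D4:**
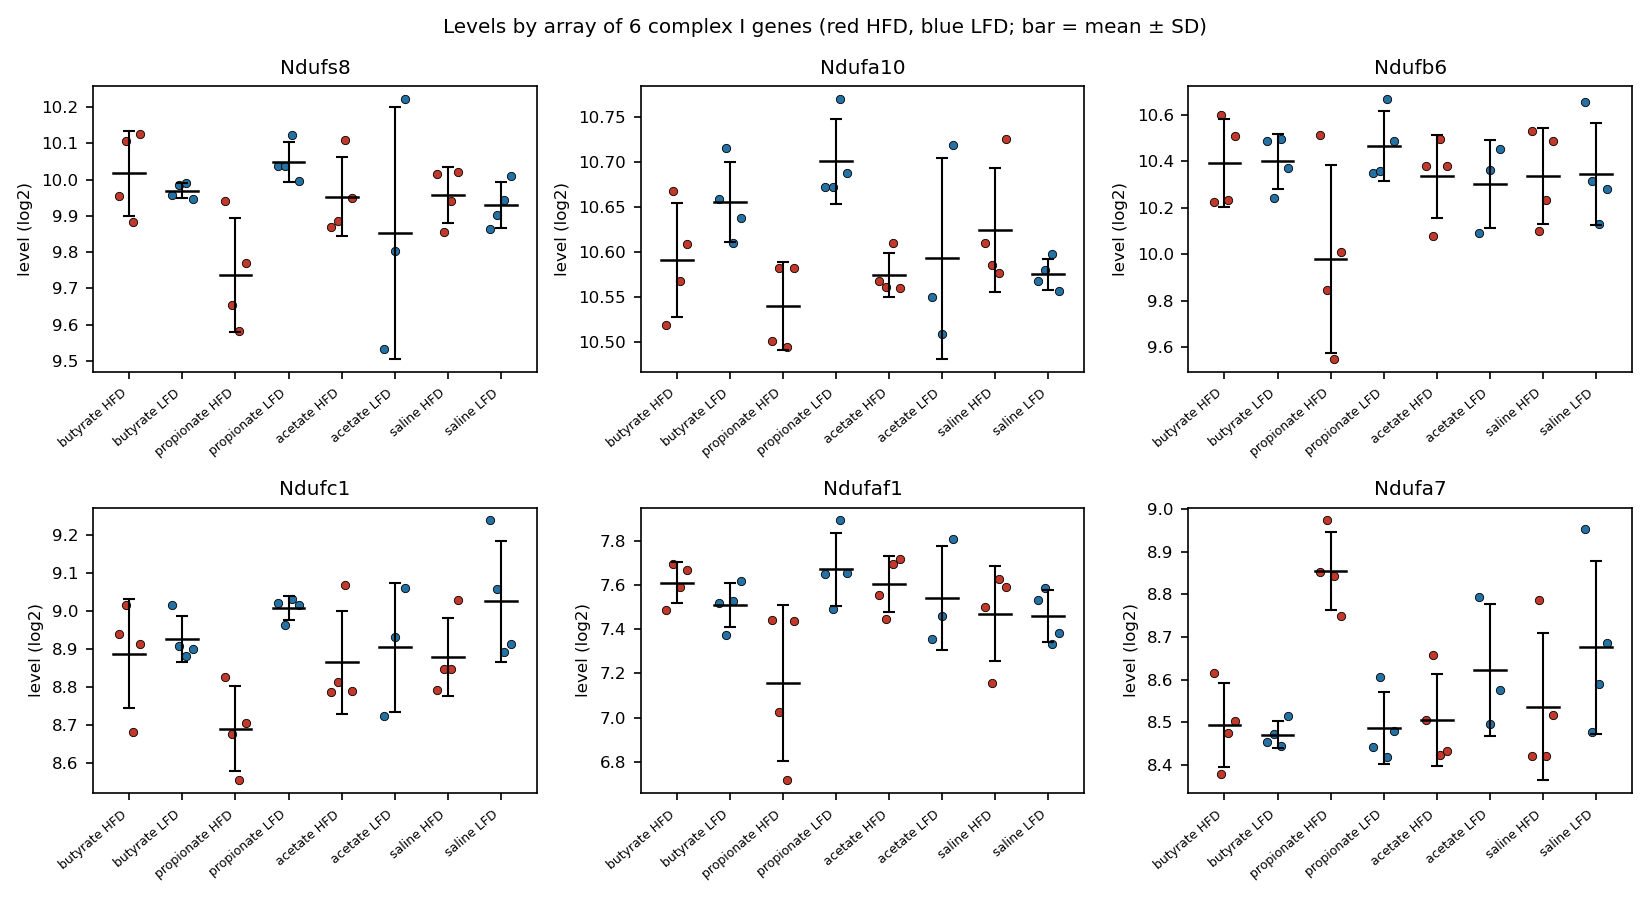
Log2 levels by array of the 6 genes past the threshold under propionate, in all 8 groups (red HFD, blue LFD; bars are mean ± SD). The propionate HFD arrays sit low for Ndufs8, Ndufa10, Ndufb6, Ndufc1 and Ndufaf1 and high for Ndufa7, and single arrays of other groups, such as saline LFD 1 for Ndufa7 (8.95), reach the same levels.

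The number of calls moved with single arrays, more than the differences did. Without propionate HFD 2, propionate HFD 3, propionate LFD 3 or propionate LFD 4 the count was 0, and without propionate HFD 1 it was 12. The count over all genes moved too, to 11 without propionate HFD 2 and 1731 without propionate HFD 1, against 879 with all arrays. With each of the 31 arrays left out in turn, the difference of Ndufa7 ran from 0.33 to 0.41, of Ndufa10 from -0.17 to -0.14, of Ndufc1 from -0.36 to -0.27 and of Ndufs8 from -0.38 to -0.26. Ndufaf1 ran from -0.61 to -0.37 and Ndufb6 from -0.67 to -0.34, with the value nearest 0 in both cases without propionate HFD 3. Centring each array on its median gave 2 higher and 1 lower, and quantile normalization gave the same split, beside 1 higher and 5 lower as deposited.

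Small nucleolar RNAs moved with these results, as 32 of 52 rose in the same comparison (median 0.65) and none fell. Ribosomal protein genes rose in 14 of 69 cases (median 0.12). Of all genes 2.05% passed higher and 4.82% lower in this comparison. Markers of proliferating cells fell in 1 of 5 cases, with means of 6.98 to 7.49 on propionate HFD arrays and 7.41 to 7.77 on propionate LFD arrays, and those of small-intestinal enterocytes in 1 of 12. None of the colonocyte, goblet cell, smooth muscle, adipocyte or immune cell markers passed. The part of these other cell types in the complex I differences was not tested. The 5 arrays with the highest small nucleolar RNA means were propionate HFD 2 (8.00), propionate HFD 3 (7.79), saline LFD 1 (7.77), propionate HFD 1 (7.76) and acetate LFD 1 (7.57). They were also the 5 arrays with the highest Ndufa7, at 8.97, 8.84, 8.95, 8.85 and 8.79 in that order. Ndufs7 was at 10.98, 10.84, 10.92, 11.15 and 10.89 there, and of the other arrays only saline HFD 2, at 11.13, lay below the highest of these values. With each array's small nucleolar RNA mean added to the fit, 0 of the 42 genes and 0 of all 12795 genes passed under propionate, and the differences became 0.10 for Ndufa7, -0.07 for Ndufs8, -0.08 for Ndufa10, -0.21 for Ndufaf1, -0.23 for Ndufc1 and -0.32 for Ndufb6. All 6 kept their direction. The small nucleolar RNA means themselves ran from 7.39 to 8.00 in propionate HFD and from 6.75 to 7.06 in propionate LFD, with no overlap. This fit therefore cannot separate that signal from the contrast of these groups, and the signal may itself be an outcome of the treatment. The part of the small nucleolar RNA signal in the complex I differences was not tested.

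**Figure D5:**
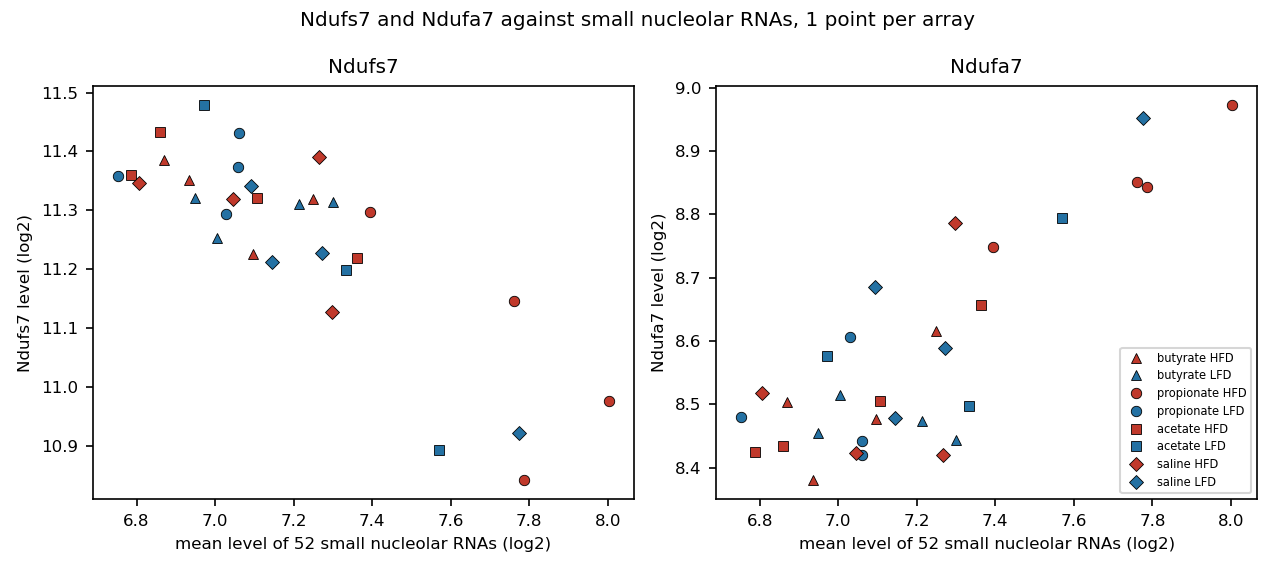
Log2 level of Ndufs7 (left) and Ndufa7 (right) against the mean log2 level of 52 small nucleolar RNAs, 1 point per array, with colour for diet (red HFD, blue LFD) and shape for infusion. Arrays to the right, 3 of propionate HFD, saline LFD 1 and acetate LFD 1, have low Ndufs7 and high Ndufa7.

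Upstream sequences of the 6 genes past the threshold are printed here, 150 bases before the start on the gene's own strand, with GC boxes (GGGCGG on either strand) in capitals. Over the full windows, none of the 6 held the NRF1 letters, 1 held the YY1 letters (Ndufc1, shown above) and 3 held a GC box. Ndufa7 has a second annotated start, whose window is not shown.
Ndufs8 (chr19:3912775-3912924, - strand): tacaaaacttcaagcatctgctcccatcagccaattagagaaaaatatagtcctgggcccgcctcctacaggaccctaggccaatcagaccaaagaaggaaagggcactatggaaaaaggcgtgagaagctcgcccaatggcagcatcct
Ndufa10 (chr1:92473759-92473908, - strand): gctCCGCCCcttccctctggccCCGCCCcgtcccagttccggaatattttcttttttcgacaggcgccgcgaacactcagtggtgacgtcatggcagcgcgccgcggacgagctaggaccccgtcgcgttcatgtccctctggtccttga
Ndufb6 (chr4:40279422-40279571, - strand): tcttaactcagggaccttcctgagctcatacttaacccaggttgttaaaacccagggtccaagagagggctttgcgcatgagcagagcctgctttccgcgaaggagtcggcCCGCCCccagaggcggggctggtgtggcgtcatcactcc
Ndufc1 (chr3:51408956-51409105, - strand): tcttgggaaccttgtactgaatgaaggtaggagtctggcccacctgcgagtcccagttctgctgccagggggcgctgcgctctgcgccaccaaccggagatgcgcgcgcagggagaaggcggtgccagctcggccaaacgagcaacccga
Ndufaf1 (chr2:119662835-119662984, - strand): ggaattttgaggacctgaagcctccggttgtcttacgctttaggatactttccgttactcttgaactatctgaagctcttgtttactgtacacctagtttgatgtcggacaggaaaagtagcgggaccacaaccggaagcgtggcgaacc
Ndufa7 (chr17:33824422-33824571, + strand): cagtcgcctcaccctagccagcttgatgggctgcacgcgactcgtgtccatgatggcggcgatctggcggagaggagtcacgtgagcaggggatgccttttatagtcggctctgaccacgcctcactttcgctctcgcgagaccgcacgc

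The rest of the respiratory chain, from lists chosen with earlier results known, was counted in the same comparison. Of all genes 4.82% passed lower and 2.05% higher there. Assembly factors of complex I without an Nduf name had 4 of 11 lower and none higher. These were Foxred1 (-0.28 ± 0.075, adjusted p = 0.0281), Dmac1 (-0.36 ± 0.101, adjusted p = 0.0317), Timmdc1 (-0.32 ± 0.096, adjusted p = 0.0412) and Aifm1 (-0.34 ± 0.104, adjusted p = 0.0467), all by limma, and the list's median was -0.14. Foxred1, an oxidoreductase-like assembly factor, was also lower on HFD over all 4 infusions (-0.15 ± 0.039; limma, adjusted p = 0.0374).

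Complex II had 0 of 8 in either direction, beside 4.82% lower and 2.05% higher of all genes. In complex III 2 of 12 fell, Cyc1, cytochrome c1 (-0.26 ± 0.067), and Bcs1l, a chaperone of its assembly (-0.36 ± 0.111). Complex IV had 3 of 16 higher and none lower: Cox7a2l, a supercomplex assembly factor (0.54 ± 0.153), Cox6b2 (0.46 ± 0.136) and Cox4i1 (0.31 ± 0.095). In complex V 1 of 17 fell, Atp5a1, the alpha subunit of ATP synthase (-0.21 ± 0.051). Regulators of mitochondrial gene expression had 0 of 11 in either direction.

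The second set of comparisons asked what each acid did against saline within a diet, and 0 of 42 genes passed in all 6, with 0% of all genes called in each. Propionate on HFD came closest. Ndufa7 had the highest difference at 0.32 ± 0.090 (limma, adjusted p = 0.238), at 8.85, 8.97, 8.84 and 8.75 in propionate HFD, against 8.42, 8.79, 8.42 and 8.52 in saline HFD, where 1 saline array overlapped. Ndufb7 had 0.27 ± 0.105, and the lowest were Ndufb6 at -0.36 ± 0.148, Ndufaf1 at -0.31 ± 0.130 and Ndufs7 at -0.23 ± 0.098. At an unadjusted p under 0.05, 2 genes were higher and 6 lower, against 3.81% and 7.89% of all genes.

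Butyrate and acetate on HFD gave less. Butyrate HFD against saline HFD had 1 gene higher (Ndufv1, 0.14 ± 0.057) and 1 lower (Ndufb8, -0.20 ± 0.075) at an unadjusted p under 0.05, near the share of all genes (2.89% higher and 1.12% lower). For Ndufb8 the butyrate HFD arrays, at 8.63, 8.62, 8.61 and 8.58, all lay below the saline HFD arrays at 8.80, 8.95, 8.74 and 8.77. The highest difference for butyrate was that of Ndufaf4, 0.31 ± 0.159, followed by Ndufv1 and Ndufaf1 (0.14 each), and the lowest was Ndufb3, -0.20 ± 0.123, followed by Ndufb8 and Ndufb7 (-0.13). Acetate HFD had 1 lower (Ndufs6, -0.19 ± 0.080) and none higher at that level, against 1.25% lower and 1.26% higher of all genes. Its differences ran from -0.25 (Ndufaf5) and -0.22 (Ndufb2) to 0.12 (Ndufs5) and 0.13 (Ndufaf1).

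On LFD, Ndufa10 was 0.13 ± 0.048 higher in propionate than in saline arrays (limma, adjusted p = 0.972), with the groups apart, and Ndufaf1 (0.21) and Ndufs7 (0.19) were the highest. Ndufa5 was the lowest for each acid, at -0.27 for butyrate, -0.20 for propionate and -0.21 for acetate. These comparisons share the saline LFD arrays, of which saline LFD 1 had Ndufa5 at 7.51, against 6.95 to 7.24 on the others. Without it the differences of Ndufa5 were -0.16 for butyrate, -0.09 for propionate and -0.10 for acetate. Butyrate LFD had 6 genes lower at an unadjusted p under 0.05, Ndufb8 (-0.19) and Ndufa7 (-0.21) among them, against 1.53% lower of all genes. Without saline LFD 1 both differences were -0.11. Acetate LFD had 0 lower, against 0.75% of all genes. Medians on LFD were -0.05 for acetate, -0.02 for propionate and -0.06 for butyrate. Without saline LFD 1 all of them turned positive, to 0.024, 0.036 and 0.0073.

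Whether an acid's response differed between the diets was tested directly, and 0 of 42 genes passed for any acid (0% of all genes). The largest differences were for propionate: Ndufa7 at 0.51 ± 0.127 (limma, adjusted p = 0.1545), Ndufaf1 at -0.53 ± 0.184, Ndufb6 at -0.48 ± 0.209 and Ndufs7 at -0.42 ± 0.138. For propionate the 42 genes split 23 below and 19 above 0, beside 57.2% below 0 of all genes, and the 6 core subunits were all among those below. For acetate the extremes were Ndufaf5 (-0.31) and Ndufs5 (0.28), and for butyrate Ndufaf5 (-0.15) and Ndufaf4 (0.36). For acetate they split 19 below and 23 above 0, beside 49.5% below 0 of all genes. For butyrate they split 13 below and 29 above, beside 54.9% above 0 of all genes. The 3 comparisons share the saline arrays. Without saline LFD 1 the median of the 42 moved from 0.0059 to -0.069 for acetate and from 0.052 to -0.025 for butyrate. For propionate it moved from -0.047 to -0.108.

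Acetate, propionate and butyrate are linear carboxylates that differ by chain length, given here at the same dose and time. In the 6 pairs, 3 on each diet, 0 of 42 genes passed. Among all genes 0.0625% passed for butyrate against propionate on HFD and 0% in the other pairs. Ndufa7 was -0.36 ± 0.090 for butyrate minus propionate on HFD (95% interval -0.54 to -0.18; limma, adjusted p = 0.0664) and 0.35 ± 0.090 for propionate minus acetate on HFD (limma, adjusted p = 0.0979). All 4 propionate HFD arrays lay above all butyrate HFD and all acetate HFD arrays.

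Ndufb7 was at 8.52, 8.59, 8.52 and 8.51 in butyrate HFD, at 8.94, 9.14, 8.92 and 8.72 in propionate HFD and at 8.45, 8.65, 8.41 and 8.41 in acetate HFD. This gave -0.40 ± 0.105 for butyrate minus propionate (limma, adjusted p = 0.0782) and 0.45 ± 0.105 for propionate minus acetate (limma, adjusted p = 0.0789). Ndufb8 had -0.29 ± 0.075 for butyrate minus propionate on HFD. Ndufaf1 went the other way, at 0.45 ± 0.130 for butyrate minus propionate and -0.45 ± 0.130 for propionate minus acetate. Its propionate HFD arrays lay below all arrays of the other acids on HFD. These comparisons share the propionate HFD arrays. Between butyrate and acetate on HFD, Ndufaf4 had the highest difference, 0.40 ± 0.159. On LFD the largest of the 3 pair medians in size was -0.05, for butyrate minus propionate.

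Ndufa4l2, a paralog known for its induction in hypoxia, was the gene under the filter, with group means of 3.70 to 3.98 beside a floor of 4.32, and it was not tested. Of the 7 genes with several probe sets, Ndufb5 and Ndufb11 had probe sets that disagreed in sign under propionate. Ndufb5 was at -0.09 for the probe set used and 0.13 for the other, and Ndufb11 at -0.03 and 0.03. A further 4 probe sets carry an Nduf symbol together with another symbol and were not used.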

How the data were processed

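RNA from colonic scrapings was measured on 31 Affymetrix arrays. The authors deposited log2 values per probe set, made with RMA (background correction, quantile normalization across arrays and summarisation) per the submitters' processing notes. The array's genome build is not given in the sources used here. Probe sets were named through GEO's platform annotation: of 35556, 21218 had 1 symbol, 1881 had several and 12457 had none listed. Only probe sets with 1 symbol were used, and the one with the highest mean stood for its gene.

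Genes were tested where at least 3 arrays reached an intensity of 20 (4.32 on the log2 scale). A model with the 8 groups was fitted over all 12795 genes with limma 3.58.1 in R 4.3.3 (lmFit, eBayes with trend), with Benjamini-Hochberg adjustment over all genes within each of 20 comparisons. Intervals are 95%. Scores and promoter searches were run in Python 3.11.15. The members and lists were chosen with earlier results of these data known. Named were all genes past the threshold in a comparison, otherwise those with the highest and lowest differences, the smallest p, the widest and narrowest group means, disagreeing probe sets, and Ndufa4 and Ndufa4l2.

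The diet comparison under propionate was also run on simulated data (12795 genes). These used each gene's mean over all arrays and a spread pooled over all 8 groups. Of genes shifted by 0.25, 0.5 and 1 on the log2 scale, 16.4%, 68.7% and 93.9% were recovered. These shares need not hold for genes whose spread within the propionate groups is wider than the pooled one. Noise was drawn separately for each gene, so shifts that many genes share on an array were not simulated. Only 67, 67 and 66 genes were shifted by these amounts, and the shares need not hold where more genes change. Alternatives were another filter, normalization, moderation or set of probe sets, array weights, the replicate number as a block, and leaving out arrays. The small nucleolar RNA covariate was added after the data were seen. Replicate numbers come from the labels. Same-numbered arrays deviated together (every pair's correlation over 0.1) only for the diet comparison under saline, at 0.116 to 0.29. Array medians lay between 5.143 and 5.186, and arrays of 1 group correlated at 0.981 to 0.994. The number of arrays, 3 or 4 a group, limits the precision.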

Additional observations from a re-analysis of the deposited data

Results flagged for a closer look

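Single arrays lay far from the other arrays of their group in 5 of 147 groups of values, over 17 genes and 4 means of gene sets. Chance flags about 1 in 20 groups. Ndufs7 was at 11.2535 on butyrate LFD 4, below 11.3115 to 11.3207 on the other butyrate LFD arrays. Acetate HFD 3 stood out for Ndufa10, at 10.6098 against 10.5593 to 10.567 on the other acetate HFD arrays, and for Ndufc1, at 9.06768 against 8.78729 to 8.81259. Ndufa10 was at 10.7698 on propionate LFD 3, above 10.6715 to 10.6878 on the other propionate LFD arrays. Ndufb7 was at 8.58732 on butyrate HFD 2, above 8.50536 to 8.51891 on the other butyrate HFD arrays.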

How the results depend on the processing

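Of the 20 counts of complex I genes past the threshold, that for the diet under propionate (6) moved most. It was 3 with no filter, 3 without the trend, 3 after quantile normalization, 3 after median centring, 3 without the arrays high in small-intestinal markers, 2 with only the groups compared, 15 with array weights and 0 with the small nucleolar RNA covariate. Over all 12795 genes the count in that comparison ran from 0 to 2652. Ndufa7 lost its call under 1 of 13 settings, Ndufaf1 under 2, Ndufc1 under 3, Ndufb6 under 7, Ndufs8 under 8 and Ndufa10 under 9, and none changed direction. The cause of these shifts was not tested.

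Counts of 0 became 4 (array weights), 1 (without the small-intestinal arrays) and 1 (small nucleolar RNA covariate) for the diet over all 4 infusions. Array weights gave 2 for propionate minus saline on HFD, 1 for the propionate response between diets, 8 for propionate minus acetate on HFD and 7 for butyrate minus propionate on HFD. Propionate minus acetate on HFD gave 1 after quantile normalization and 1 without the arrays high in smooth muscle markers, and the propionate response between diets gave 1 without the small-intestinal arrays.

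With the replicate number as a block, propionate minus acetate on HFD gave 1 call in place of 0, and the diet under propionate again gave 6. Under saline, where same-numbered arrays deviated together, the block gave 0. The labels give only a number, so whether it marks a pair is not known for any comparison.

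Leaving out each of 31 arrays in turn gave 0 to 12 for the diet under propionate. It was 2 without propionate LFD 1, 3 without propionate LFD 2 and 3 without acetate HFD 4. For the diet over all 4 infusions it gave 0 to 4: 4 without propionate HFD 1, 3 without saline LFD 3, 2 without acetate LFD 1 or butyrate HFD 2, and 1 without acetate HFD 3, butyrate HFD 1 or saline HFD 4. Propionate minus acetate on HFD gave 0 to 3 (3 without propionate HFD 4, 2 without acetate HFD 2 or saline LFD 1, 1 without saline HFD 2). Butyrate minus propionate on HFD gave 0 to 6 (6 without propionate HFD 1, 3 without saline LFD 1, 1 without acetate LFD 1 or propionate HFD 4). The other 16 counts stayed at 0 in these fits.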
